A study of Mus musculus with 5 samples.

Results

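The 9 genes Fabp7, Nes, Pax6, Zic1, Sox1, Sox21, Hes5, Pou3f2 and Ncam1, known from neural progenitor cells, were followed in 5 mouse cell populations. Each gene was taken where the platform annotation gave a probe set exactly 1 symbol, and the probe set with the highest mean over the arrays stood for the gene. All 9 genes were found, through 10 probe sets, among 19938 genes named in this way, and only Pou3f2 had more than 1 probe set. The genes had been chosen with earlier results of the same arrays known, so their values are given as a description.

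RNA of each population was measured on a mouse Affymetrix array (Mouse Gene 1.0 ST). On it, a gene is read by a set of short probes, and the deposited values are log2 expression. B6CBAF1 embryonic stem cells (ESCs) that had not been transplanted were the parental population. The others, called ESC-like cells, were cultured from teratomas that such ESCs had formed under the skin of host mice. The hosts were B6CBAF1 mice for the homologous injection and B6D2F1 mice for the heterologous injection of ESCs alone. For the co-injection, B6CBAF1 ESCs were mixed with B6D2F1 embryonic fibroblasts and placed into B6D2F1 mice. The resulting cells were measured for 2 batches (n = 2), which the study names by fibroblast batch and counts as separate cell populations. Neither the labels nor the study say whether the batches came from separate teratomas, so their spread may be technical. The other conditions had 1 array each, and the sources used here do not give the age of the hosts. All 5 populations grew on inactivated fibroblasts of ICR mouse embryos in medium with leukemia inhibitory factor (LIF). The labels give the same LIF concentration for all, whereas the methods of the study give a higher one for the culture of teratoma cells. Differences are log2 values, so that 2-fold equals 1, and a gene was counted when the size of its difference exceeded this. Such a count has no replicate check and no p-value, and the number of arrays limits the precision.

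Neural progenitors are the dividing cells of the early neural tube and of the later brain wall. They are set up by transcription factors of the Sox, Pax, Zic and Pou families, kept from becoming neurons by Notch signalling through Hes proteins, and change into radial glia, which carry Fabp7 and Nes. Pluripotent ESCs can take this route when LIF is removed.

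The arrays of all 5 populations carried the markers of pluripotent cells. All 10 genes of this list lay above the 95th percentile of the 1027 olfactory receptor genes on each array, which served as a reference for dim probe sets. Olfactory receptor genes had medians between 5.11 and 5.27 and a 95th percentile between 6.85 and 7.05. A value not above this percentile on its array is called dim below, and a difference whose lower side is dim may understate the change. The pluripotency gene Pou5f1 (Oct-4) was at 12.60 in parental ESCs and at 12.32 in the heterologous array, and Sox2, a pluripotency and neural gene of the same family as Sox1, was at 12.04 and 11.45. Zfp42 and Esrrb, genes of the naive state, lay below parental ESCs in the heterologous array past 2-fold (-1.63 and -1.18). The array medians over all probe sets lay between 7.48 and 7.54. Between the 2 co-injection arrays the absolute difference of a gene had a median of 0.07 and a 95th percentile of 0.25. This spread was the only replicate error at hand.

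Promoter sequence was at hand from RefSeq (GRCm38.p6) for 8 of the 9 genes, Ncam1 being the other. Of these, Fabp7 and Nes are shown because they had the 2 largest positive differences in the heterologous array, and Hes5 because it is a direct target of Notch signalling that stayed within 2-fold on all arrays. Each run gives the 250 bases before the start of the gene, read 5′ to 3′ on the strand of the gene. Capitals mark matches, on either strand, to TGGGAA, the core bound by the Notch cofactor RBPJ, and to ACAATG, a core bound by Sox proteins. No match to one core overlapped a match to the other in these runs.
Fabp7 (chr10:57784673-57784922, + strand): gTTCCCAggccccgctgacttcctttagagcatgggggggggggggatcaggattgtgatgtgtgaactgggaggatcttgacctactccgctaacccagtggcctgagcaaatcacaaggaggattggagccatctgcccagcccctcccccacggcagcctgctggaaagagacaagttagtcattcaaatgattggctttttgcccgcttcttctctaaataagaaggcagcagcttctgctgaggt
Nes (chr3:87970843-87971092, + strand): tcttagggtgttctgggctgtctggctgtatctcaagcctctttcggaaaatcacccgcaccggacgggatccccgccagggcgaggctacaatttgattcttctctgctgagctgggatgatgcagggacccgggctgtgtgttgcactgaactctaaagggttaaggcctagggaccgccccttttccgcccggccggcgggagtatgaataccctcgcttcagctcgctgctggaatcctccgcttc
Hes5 (chr4:154960673-154960922, + strand): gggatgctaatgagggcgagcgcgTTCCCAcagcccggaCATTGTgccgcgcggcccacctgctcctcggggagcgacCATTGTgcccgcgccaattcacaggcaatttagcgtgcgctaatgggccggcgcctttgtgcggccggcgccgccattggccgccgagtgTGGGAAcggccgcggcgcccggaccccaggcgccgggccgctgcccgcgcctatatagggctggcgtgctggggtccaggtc
TGGGAA was found in 2 of the 9 promoters of the genes, those of Fabp7 and Hes5, the latter with 2 matches, and in 21.6% of all 32851 promoters of this length. ACAATG was found in 1 of the 9, that of Hes5, and in 10.7% of all. Pax6 had 2 promoters in this count. The matches describe the sequence only, and binding was not measured.

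**Figure D1:**
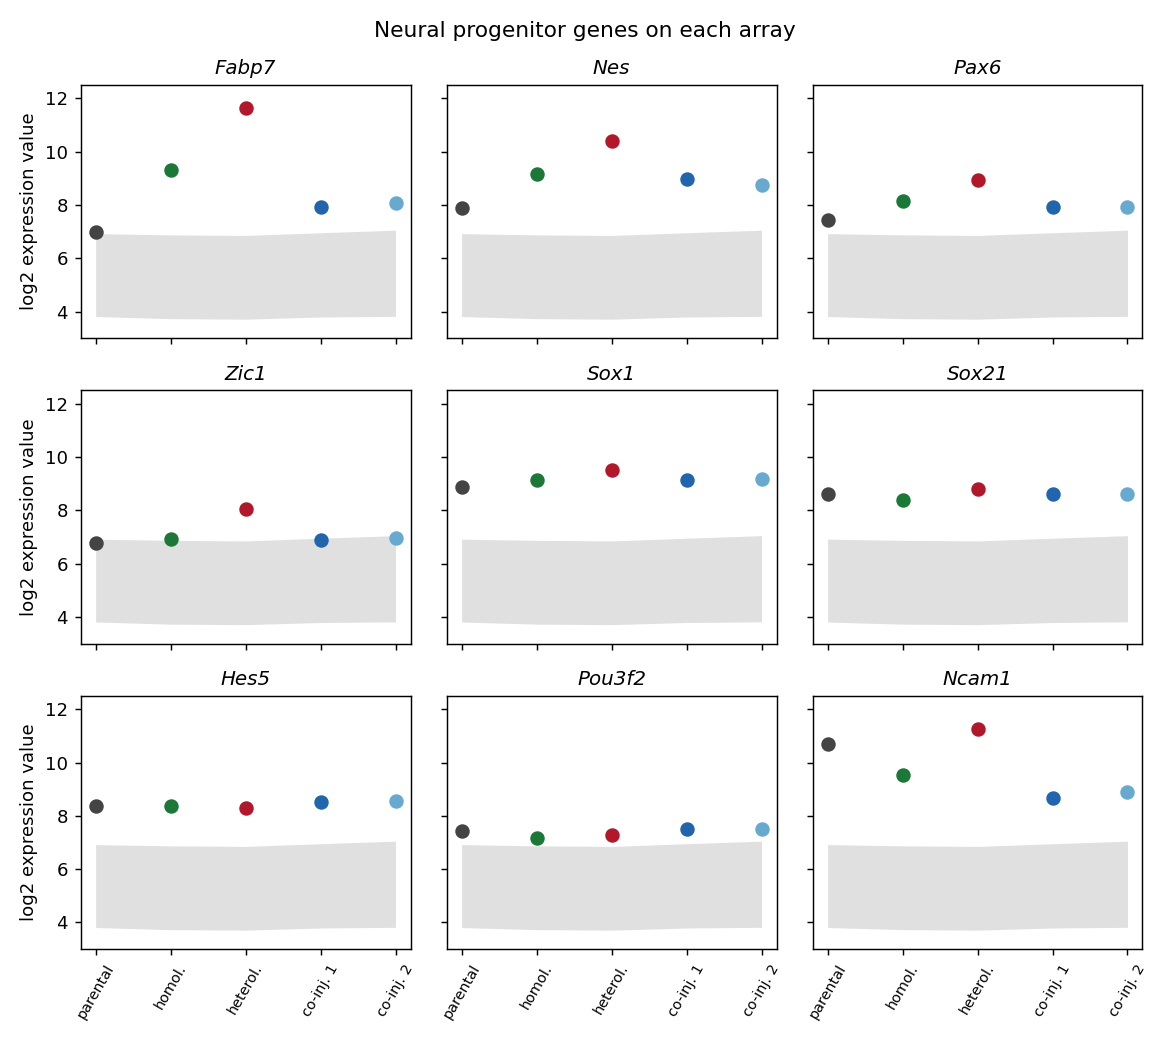
Log2 expression value (vertical axis) of each gene on each array (horizontal axis), 1 point per array, with the grey band spanning the 5th to 95th percentile of 1027 olfactory receptor genes on the same array. Fabp7, Nes, Pax6 and Zic1 were highest in the heterologous array, Ncam1 was lowest in the co-injection arrays, and Sox21, Hes5 and Pou3f2 stayed within 2-fold, with ranges of 0.42, 0.27 and 0.37.

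Fabp7, a fatty acid binding protein of radial glia, differed more from parental ESCs in the heterologous array than any other of the 19938 genes did in the positive direction. Its log2 value was 6.99 in parental ESCs, 9.32 in the homologous array, 11.64 in the heterologous array, and 7.92 and 8.05 in batch 1 and batch 2 of the co-injection. The order was parental, co-injection, homologous and heterologous, and each step was larger than 0.23, the 95th percentile of the pair differences of the 1000 genes nearest to it in mean value. The heterologous array was 25.1-fold above parental ESCs (4.65) and 4.98-fold above the homologous array (2.32). The homologous array was 5.04-fold above parental ESCs (2.33), the 9th highest difference of all genes. In the co-injection arrays the difference from parental ESCs was 1.00 ± 0.09 (SD, n = 2), which is 12.6-fold below the heterologous and 2.52-fold below the homologous array. In parental ESCs, Fabp7 was just above the 95th percentile of olfactory receptor genes, 6.92, so its level there was close to that of dim probe sets. More cells of a type and more RNA per cell cannot be told apart in such bulk samples.

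Nes, which encodes the intermediate filament nestin of neural progenitors and also of some muscle and vessel cells, followed the same order. The step from parental ESCs to the co-injection mean was like that of Fabp7 (1.00 for both), and the later steps of Nes were smaller. Its log2 values were 7.87 in parental ESCs, 9.15 in the homologous, 10.39 in the heterologous and 8.98 and 8.76 in the co-injection arrays. The heterologous array exceeded parental ESCs 5.75-fold (2.52), the homologous array 2.43-fold (1.28) and the co-injection mean 2.01-fold (1.00 ± 0.15, SD, n = 2). The homologous array lay 0.28 above the co-injection mean, but only 0.17 above batch 1, which is within the 0.22 that bounded 95% of the pair differences at this level.

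Pax6, a homeodomain factor of the eye, forebrain and spinal cord, was 2.90-fold higher in the heterologous array than in parental ESCs. Its values were 7.42 in parental ESCs, 8.15 in the homologous, 8.95 in the heterologous and 7.91 in both co-injection arrays. The differences from parental ESCs were 0.73 in the homologous array, 1.53 in the heterologous array and 0.49 in the co-injection arrays, so that only the heterologous array passed 2-fold. Zic1, a zinc finger factor of the dorsal neural tube, stood out in the heterologous array alone. It was at 6.76 in parental ESCs, 6.92 in the homologous, 8.03 in the heterologous, and 6.89 and 6.98 in the co-injection arrays. The heterologous value was 2.42-fold above parental ESCs (1.27) and 2.16-fold above the homologous array (1.11). The other 4 values of Zic1 were within 0.27 of each other, which 95% of pair differences at this level did not exceed, and 3 of them did not exceed the 95th percentile of olfactory receptor genes on the same array.

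Sox1, the first Sox factor restricted to the neural plate, stayed within 2-fold on all arrays. Its values were 8.89 in parental ESCs, 9.16 in the homologous, 9.52 in the heterologous, and 9.16 and 9.17 in the co-injection arrays. The heterologous array was 1.55-fold above parental ESCs (0.63), past the spread of 0.22 at this level but under 2-fold. The homologous and co-injection arrays differed from each other by 0.01. Sox1 lies on chromosome 8, where 652 other genes had a median difference of 0.26 in homologous, 0.04 in heterologous, and 0.22 and 0.25 in co-injection cells, close to the differences of Sox1 in all but the heterologous array (0.27, 0.27 and 0.28). The medians of the 50 nearest named genes, 25 on each side, were between -0.07 and 0.12. These neighbours were taken at any brightness, whereas the chromosome medians used only genes with a mean above 7.49. The 2 kinds of median are therefore not directly comparable.

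Sox21, a repressor that opposes Sox1 to Sox3 in neural progenitors, was at 8.61 in parental ESCs, 8.39 in the homologous, 8.81 in the heterologous and 8.61 in both co-injection arrays. Hes5, a repressor that carries the Notch signal, was at 8.37 in parental ESCs and in the homologous array, 8.30 in the heterologous, and 8.52 and 8.57 in the co-injection arrays. Its whole range over the arrays, 0.27, was the smallest of the 9 genes. Pou3f2 (Brn2), a POU factor of neural progenitors and neurons, was at 7.42 in parental ESCs, 7.15 in the homologous, 7.28 in the heterologous, and 7.50 and 7.53 in the co-injection arrays. None of these 3 genes passed 2-fold in any of the 6 comparisons, where 0.0752% to 3.98% of all genes did in each direction. Their ranges over the arrays were 0.42 for Sox21, 0.37 for Pou3f2 and 0.27 for Hes5. The pair spreads at their levels were lower, at 0.23, 0.25 and 0.23. A range is taken over all arrays, whereas a pair spread comes from the co-injection pair alone. A range over more arrays tends to be wider through spread alone, so this comparison cannot show a change in these genes.

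Ncam1, the neural cell adhesion molecule, was the only one of the 9 genes more than 2-fold below parental ESCs in any array. Its values were 10.71 in parental ESCs, 9.52 in the homologous, 11.26 in the heterologous, and 8.66 and 8.90 in the co-injection arrays. The order was co-injection, homologous, parental and heterologous, and each step exceeded the 0.19 that bounded 95% of pair differences at this level. Its own 2 co-injection values differed by 0.25, more than this bound and the most of the 9 genes. Against parental ESCs the difference was -1.93 ± 0.17 (SD, n = 2) in the co-injection arrays, or 3.80-fold lower, and -1.19 in the homologous array, or 2.28-fold lower. The heterologous array was 1.47-fold above parental ESCs (0.55), 3.34-fold above the homologous array (1.74) and 5.57-fold above the co-injection mean.

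**Figure D2:**
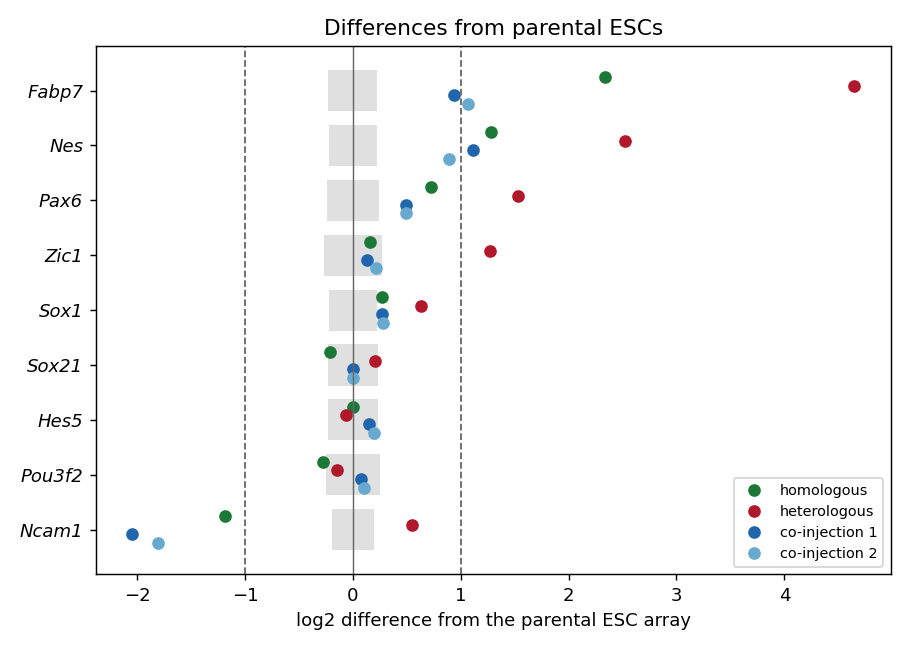
Log2 difference of each ESC-like array from the parental ESC array (horizontal axis) for each gene, 1 point per array, with dashed lines at 2-fold and grey bars for the 95th percentile of pair differences of 1000 genes of like mean value. Fabp7, Nes, Pax6 and Zic1 passed 2-fold upward in the heterologous array, whereas Ncam1 passed 2-fold downward in the homologous and both co-injection arrays.

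The comparison of homologous ESC-like cells with parental ESCs concerns passage through a teratoma in a matched host. Of the 9 genes, 2 were more than 2-fold higher, Fabp7 and Nes, where 1.45% of all genes were, and 1 was more than 2-fold lower, Ncam1, where 1.60% were. The median over the 9 genes was 0.16, against -0.01 over all genes. In the heterologous array, from the mismatched host, 4 exceeded parental ESCs more than 2-fold, Fabp7, Nes, Pax6 and Zic1, against 3.98% of all genes, and none was more than 2-fold lower, against 1.95%. The median was 0.63, against -0.04 over all genes. In the co-injection mean, 1 was more than 2-fold higher, Nes, against 0.647% of all genes, and 1 was lower, Ncam1, against 1.44%, with a median of 0.17 against 0.04. All of these comparisons use the same parental array, which has no replicate. The counts of the co-injection turn on values next to the threshold. Batch 1 passed 2-fold for Nes (1.11) and not for Fabp7 (0.93), and batch 2 for Fabp7 (1.07) and not for Nes (0.90), where 0.677% and 0.702% of all genes were more than 2-fold higher. Ncam1 passed 2-fold downward in both batches, where 1.51% and 1.44% of all genes did. Without batch 1, Nes therefore did not pass in the co-injection, and Fabp7 did. With limma, which takes its error from the co-injection pair alone, 0 of the 9 genes had an adjusted p under 0.05 in each of the 6 comparisons (0% of all genes), and 4 to 9 of them had an unadjusted p under 0.05, against 17.7% to 34.3% of all genes.

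In the study, most heterologous injections of ESCs alone formed no teratoma, whereas all homologous injections and most co-injections did. The host and how readily teratomas formed in it can therefore not be told apart here. To compare hosts, and teratomas with and without added fibroblasts, the heterologous array was set against the others. It exceeded the homologous array more than 2-fold for 4 of the 9 genes, Fabp7, Ncam1, Nes and Zic1, against 2.41% of all genes, with a median difference of 0.81 against -0.01. None was more than 2-fold lower, against 0.647%. The co-injection mean was more than 2-fold below the heterologous array for 5 of the 9 genes, against 2.99% of all genes, and above it for none, against 0.361%. The differences were -3.65 ± 0.09 for Fabp7, -2.48 ± 0.17 for Ncam1, -1.52 ± 0.15 for Nes and -1.10 ± 0.06 for Zic1 (SD, n = 2). Zic1 was dim in both batches. Pax6 differed by -1.05, with equal values in both batches. The median was -1.05, against 0.07 over all genes. The co-injection arrays were near the homologous array, with 1 of the 9 genes more than 2-fold lower, Fabp7 at -1.33 ± 0.09 (SD, n = 2), against 0.351% of all genes, and none higher, against 0.0752%. Ncam1 was 0.74 lower in the co-injection mean than in the homologous array, 1.67-fold, and by 0.86 in batch 1 and 0.62 in batch 2.

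**Figure D3:**
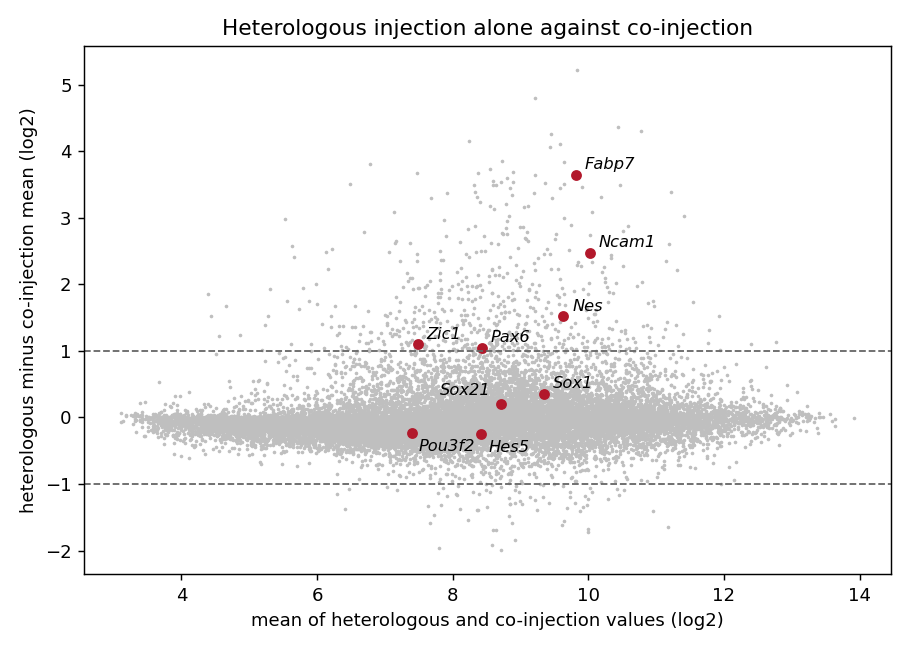
Heterologous value minus the co-injection mean (vertical axis, log2) against the mean of these (horizontal axis, log2) for 19938 genes in grey and the 9 genes in red, with dashed lines at 2-fold. Fabp7, Ncam1, Nes, Zic1 and Pax6 lay above the upper line, between 1.05 and 3.65, and the other 4 genes lay between the lines.

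Fibroblast genes were higher in the same array as Fabp7 and Nes. Of 20 fibroblast markers measured, 15 exceeded parental ESCs there by more than 2-fold, against 3.98% of all genes. Their median was 1.70, against -0.04 over all genes, and the matrix genes Postn (3.30) and Thbs2 (3.29) were highest. All 6 markers of contractile cells also exceeded parental ESCs there by more than 2-fold, led by Tagln (2.23) and Myl9 (2.13). In the homologous array 2 fibroblast markers did, the protease gene Mmp2 (1.91) and the receptor gene Pdgfrb (1.31), against 1.45% of all genes. In the co-injection mean 1 did, Mmp2 (1.25), against 0.647%. Summed on the linear scale and set to 1 in parental ESCs, the fibroblast markers reached 1.5 in the homologous array, 2.92 in the heterologous array, and 1.06 and 1.10 in batch 1 and batch 2. For the contractile markers it was 1.47, 3.94, 0.80 and 0.72. Of the fibroblast markers, 18 of 20 were above the 95th percentile of olfactory receptor genes in the parental, homologous and heterologous arrays, and 14 and 13 in the co-injection arrays. In the co-injection mean, the fibroblast genes Thy1 (-1.12), Prrx1 (-1.07) and Lox (-2.04) and the contractile gene Acta2 (-1.48) were more than 2-fold lower than in parental ESCs. Ncam1 was as well, and 1.44% of all genes were. Prrx1 and Lox were dim in both batches. The part of fibroblast RNA in the values of the 9 genes was not tested.

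The genes with profiles nearest to Fabp7 were Cd109, Cyp1b1, Has2, Lrrc32 and Wls. Nearness was the root mean square distance between the 4 differences from parental ESCs, and it was 0.46 for Cd109, a surface protein that binds TGF-beta, and 0.87 for Wls, a carrier of Wnt ligands. Their differences in the heterologous array lay between 3.32 and 3.79, below the 4.65 of Fabp7. Nes had nearer neighbours, Irs1, Marcks, St6gal2, Sall2 and Shisa6, at distances from 0.06 to 0.22. Irs1, an adaptor of the insulin receptor, was at 1.20 in the homologous, 2.43 in the heterologous, and 1.12 and 0.92 in the co-injection arrays. Those of Ncam1 were Nid1 (0.32), a basement membrane protein, Olfml3, Serpinb2, Ptgs2 and Fgf10 (0.49). All 5 were lower than parental ESCs in the homologous and both co-injection arrays, and 4 of them were at or above parental ESCs in the heterologous array, the exception being Serpinb2 at -0.23. Among these 15 neighbours, Cd109, Cyp1b1 and St6gal2 were dim in parental ESCs, and Serpinb2 and Fgf10 in both co-injection arrays.

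**Figure D4:**
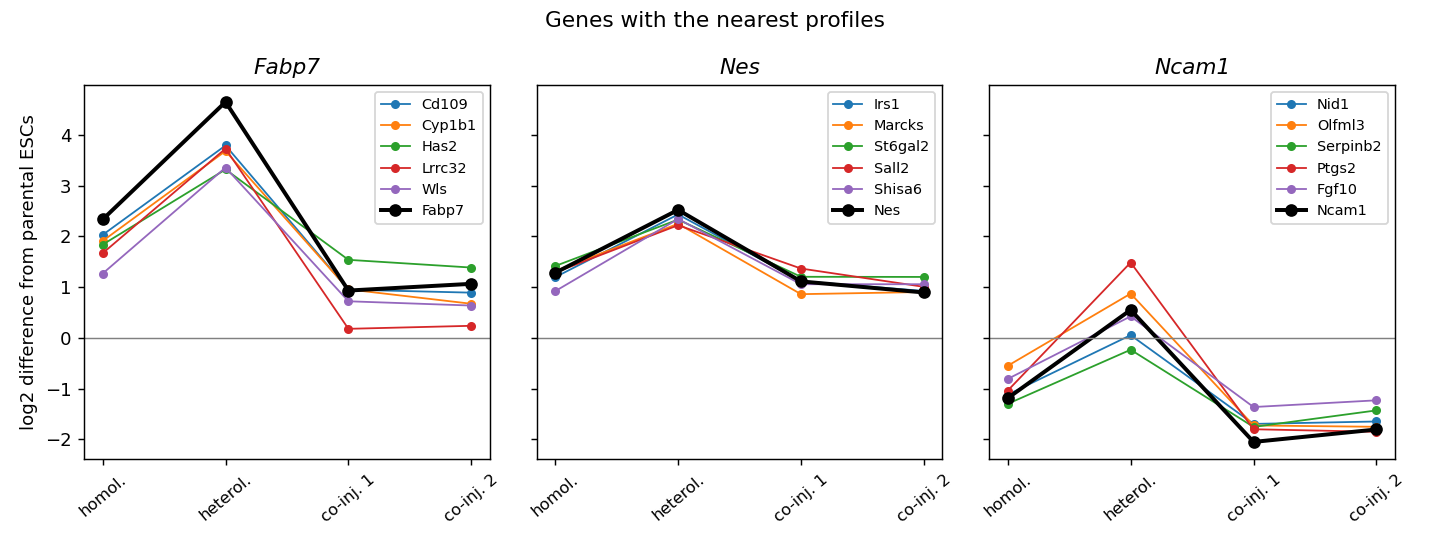
Log2 difference from parental ESCs (vertical axis) in the 4 ESC-like arrays (horizontal axis) for Fabp7, Nes and Ncam1 in black and for the 5 genes nearest to each in colour, with lines joining the points of a gene only as a guide. The profiles of Fabp7 and Nes peak in the heterologous array at 4.65 and 2.52, and that of Ncam1 falls to -2.05 in batch 1 of the co-injection.

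Other genes of radial glia and neural stem cells moved in both directions. Of 16 measured, 2 exceeded parental ESCs more than 2-fold in the heterologous array, the N-cadherin gene Cdh2 (2.30) and the prominin gene Prom1 (1.49), against 3.98% of all genes. There 1 was lower, Hopx (-1.24), against 1.95%. The median of the list was 0.29, against -0.04 over all genes. Prom1 was also higher in homologous (1.89) and co-injection cells (1.39), and Hopx was lower in both (-1.11 and -1.12). Prom1 was dim in parental ESCs (6.60). Mfge8, a secreted glycoprotein, was at -0.99 in the homologous array and just past 2-fold lower in the co-injection mean (SD 0.11, n = 2). Cdh2 was 1.43 above the homologous array and 1.63 above the co-injection mean in the heterologous array. Vim, whose filament protein pairs with nestin and which fibroblasts also carry, was more than 2-fold lower in the co-injection mean than in the heterologous array (-1.13).

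Of the Notch pathway, 3 of 20 genes exceeded parental ESCs more than 2-fold in the heterologous array, against 3.98% of all genes, and 1 was lower, against 1.95%. These were the ligand gene Jag2 (1.86), Hey2 (1.07), a repressor induced by Notch, Hes6 (1.01), which opposes Hes1, and the receptor gene Notch4 (-1.07). Jag2 was also higher in the homologous array (1.23) and the co-injection mean (1.22), and Notch3 was higher in the homologous array (1.07). Notch4 was also lower, just under 2-fold, in the homologous array (-0.94) and the co-injection mean (-0.99). Hes1, the paralog of Hes5, was at 0.56 in the heterologous array. None of the 20 differed more than 2-fold between the homologous array, the heterologous array and the co-injection mean. Over all genes, 2.41% were higher and 0.647% lower in heterologous minus homologous. In co-injection minus heterologous 0.361% were higher and 2.99% lower, and in co-injection minus homologous 0.0752% and 0.351%. None of 20 is near these shares. Hey2 (7.54 in the heterologous array) was at 6.79 in batch 1 and 6.45 in batch 2 and so passed 2-fold against batch 2 alone. Hey2 was dim in all but the heterologous array.

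Of 19 factors that give neural tissue its regional identity, none exceeded parental ESCs by more than 2-fold in the homologous, heterologous or co-injection comparison. Over all genes, 1.45%, 3.98% and 0.647% did. The forebrain and epiblast factor Otx2 was at -1.51 in the heterologous array and at -1.98 when that array was set against the homologous one, and the co-injection mean was 1.70 above the heterologous array. En2, of the midbrain, was at 0.82 there, 1.04 above the homologous array. Emx2, of the cortex, was also at 0.82 and was more than 2-fold lower in the co-injection mean than in the heterologous array (-1.11), where both co-injection values were dim (6.62 and 6.75).

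Genes of neurons and glia were mostly within 2-fold of parental ESCs. Of 18 proneural and neuronal genes, only Neurod1, a factor of neurons and endocrine cells, was past 2-fold in the heterologous array (1.86), and it also was in the homologous array (1.63) and the co-injection mean (1.76 ± 0.10, SD, n = 2). The median of the list in the heterologous array was -0.24, against -0.04 over all genes, of which 3.98% were more than 2-fold higher there. The neurofilament gene Nefl was more than 2-fold lower in the homologous array (-1.29), Nefm in the co-injection mean (-1.02, dim in both batches), and the neuronal RNA-binding gene Elavl3 was 1.15 lower in the heterologous than in the homologous array. None of 9 genes of glia and Schwann cells and none of 8 of skeletal muscle progenitors passed 2-fold in any comparison. Over all genes, 0.0752% to 3.98% did so in each direction of a comparison, so none of so few genes is near these shares. Of 10 neural crest genes, Snai2, which fibroblasts also express, was higher in the homologous (1.31) and heterologous (2.68) arrays, where 1.45% and 3.98% of all genes were more than 2-fold higher. The co-injection mean of Snai2 was below these by -2.08 and -3.44, with batch 2 dim. Foxd3, of neural crest and of ESCs, was lower in the homologous (-1.84) and heterologous (-1.39) arrays and in the co-injection mean (-1.02). Over all genes, 1.60%, 1.95% and 1.44% were more than 2-fold lower there. Ngfr was more than 2-fold lower in the homologous array (-1.36), and was at -0.99 in both the heterologous array and the co-injection mean. Of 7 endothelial genes, Pecam1, which ESCs also express, was lower in the heterologous array (-1.44), by -1.36 against the homologous array, and the co-injection mean was 1.12 above it. None of the 7 exceeded parental ESCs by more than 2-fold in the 3 comparisons with them, where 1.45%, 3.98% and 0.647% of all genes did.

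Of 14 paralogs of the 9 genes, Zic2 was more than 2-fold higher in the homologous (1.02) and heterologous (1.24) arrays, and Fabp5 in the co-injection mean (1.07 ± 0.03, SD, n = 2), and none was lower. Over all genes, 1.45%, 3.98% and 0.647% were higher in these comparisons with parental ESCs, and 1.60%, 1.95% and 1.44% were lower. Fabp5 was at 0.91 and 0.86 in the homologous and heterologous arrays, so that its whole range over the ESC-like conditions was small beside that of Fabp7. Of 7 genes for partners of NCAM1 and for the enzymes that add polysialic acid to it, only Gfra1, a receptor subunit for the growth factor GDNF, passed 2-fold. It was at 1.32 in the heterologous array, where 3.98% of all genes were more than 2-fold higher.

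**Figure D5:**
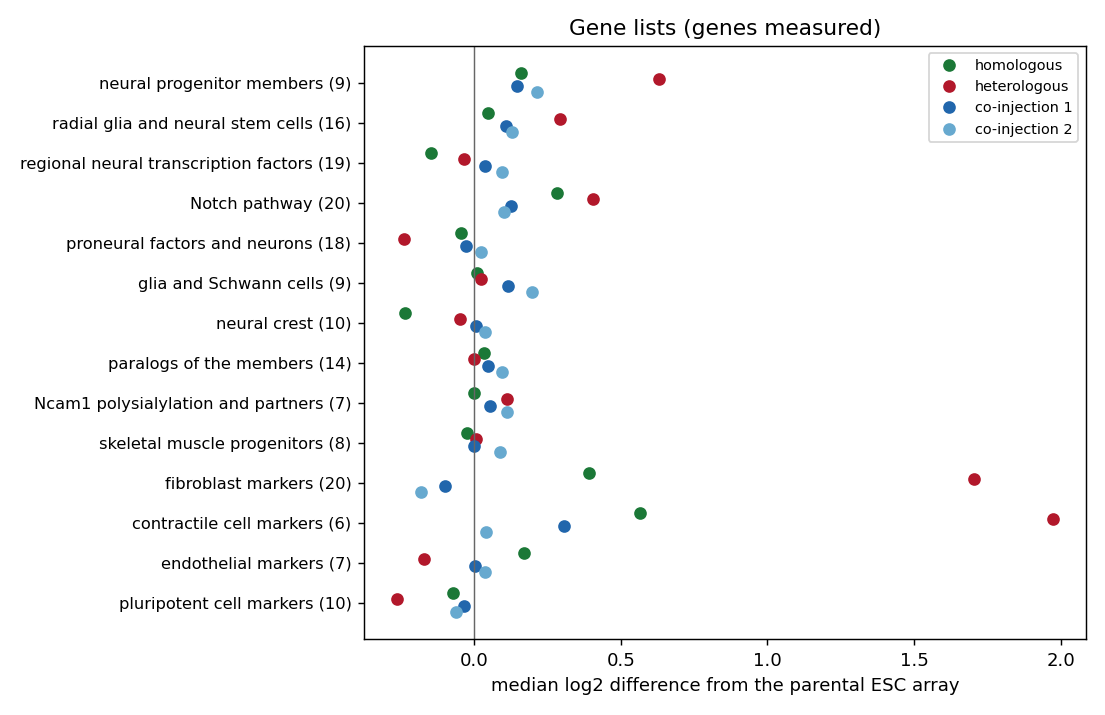
Median log2 difference from parental ESCs (horizontal axis) of each gene list (vertical axis, number of genes measured in parentheses) in the 4 ESC-like arrays. In the heterologous array the median was 0.63 for the 9 neural progenitor genes, 1.70 for the fibroblast and 1.97 for the contractile markers, and -0.24 for the neuronal genes.

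The chromosome medians of the genes other than Sox1 lay between -0.04 and 0.02 in all 4 ESC-like arrays. The medians of their 50 neighbours, taken at any brightness, lay between -0.14 and 0.10. The part of chromosome number in the values of the 9 genes was not tested.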

How the data were processed

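The authors extracted intensities with GCOS and made the deposited log2 values by RMA with quantile normalization (versions: not given in the sources used here). A table of 35556 probe sets on 5 arrays was used without further normalization. Of these, 21789 have exactly 1 symbol in the platform annotation, 1621 several and 12146 none. Differences are log2 values of 1 array, or of the co-injection mean, minus another. A gene was counted above 2-fold, and this count uses no test. The 9 genes and the gene lists were chosen with earlier results of these data known.

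Within a list, genes were named when among the 2 highest or 2 lowest of the heterologous minus parental differences and past 2-fold, or when past 2-fold in another comparison with at most 3 such genes. For nearest profiles the first 5 genes were named. Genes given outside this rule (Pou5f1, Sox2, Hes1, and values under 2-fold) were chosen after their values were seen. Chromosomes were known for 19855 genes from the GRCm38.p6 annotation, and chromosome medians used genes with a mean above 7.49, the median of all values. Neighbours of a gene were taken without this limit. RMA summarises probes by medians, and 6018 genes had the same value on at least 2 arrays, among them Pax6, Sox1, Sox21 and Hes5, so an SD of 0 is not an absence of error.

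Alternatives were thresholds of 1.5-fold and 3-fold, the mean of a gene's probe sets, leaving out dim genes, cyclic loess, median centring, leaving out each co-injection array, and limma (eBayes, Benjamini-Hochberg over 19938 genes), which rests on 1 residual degree of freedom, that of the co-injection pair. The count over 2-fold and the limma fit were each tested on simulated data. Scanner files were not used here, so background correction was not varied. Python 3.11.15, pandas 2.3.3, numpy 2.4.6, matplotlib 3.10.9, R 4.3.3 and limma 3.58.1 were used.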

Additional observations from a re-analysis of the deposited data

Results flagged for a closer look

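Ncam1 lay on opposite sides of parental ESCs in different conditions, which drew attention to it. It was below parental ESCs in the homologous array (-1.19) and in co-injection batch 1 (-2.05) and batch 2 (-1.80), but above them in the heterologous array (0.55). A gene was flagged only if each of these 4 differences exceeded the 95th percentile of pair differences at its level (0.19 for Ncam1). Passing this bound is therefore no separate support. The 4 differences of Ncam1 also exceeded the 0.25 between its own 2 co-injection values. By limma the difference between co-injection and heterologous arrays had an adjusted p of 0.0982 (-2.48), and that between heterologous and homologous arrays one of 0.128 (1.74). Neither passed 0.05. The difference in direction was not tested beyond this, as homologous and heterologous conditions have 1 array each.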

How the results depend on the processing

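The 19 differences over 2-fold of the 9 genes kept their direction in all alternatives tried, and in 106 of 108 values they also stayed past 2-fold. The exceptions were Nes in co-injection minus parental, at 0.97 after median centring and 0.90 without co-injection batch 1. Many of the 108 values could not move, so the total overstates how far the differences were tried. The limma estimate equals the plain difference, and leaving out dim genes alters no value. The mean of probe sets alters only Pou3f2, which has none of the 19 differences. Counts of genes over 2-fold changed by more than 1.5 times as follows. At 3-fold, the counts became 1 (from 3) for homologous minus parental, 2 (from 4) for heterologous minus parental, 1 (from 2) for co-injection minus parental, 2 (from 4) for heterologous minus homologous, 2 (from 5) for co-injection minus heterologous and 0 (from 1) for co-injection minus homologous. At 1.5-fold the last count was 2, with Ncam1 added. After median centring co-injection minus parental counted 1. Without either co-injection array the 3 counts with the co-injection were 2, 5 and 1, as with both. With limma at an adjusted p under 0.05 the count was 0 in all 6 comparisons, as it was over all genes, although 3530 to 6842 genes had an unadjusted p under 0.05, among them 4 to 9 of the 9 genes. The lowest adjusted p of the 9 genes was 0.0635, for Fabp7 and Pax6 in heterologous minus parental. These p-values measure only the spread between the 2 co-injection batches. For Pax6 and Sox21 that spread was 0, as both arrays held equal values. Their p-values therefore rest on no error of their own, only on what limma borrows from the pair spread over all genes. Sox21 was under 0.05 unadjusted in heterologous minus parental at a difference of 0.21. That is within the 0.23 that bounded 95% of pair differences at its level. No paired analysis was possible because only the co-injection has more than 1 array. Zic1 and Pou3f2 were left out as dim in the alternative without dim genes. Neither the slide nor another background correction could be tried, since scanner files were not used here.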

Other observations

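The dimmer probe set of Pou3f2 was at 3.73 in parental ESCs, 3.58 in the homologous, 3.85 in the heterologous, and 3.73 and 3.70 in the co-injection arrays, below the median of olfactory receptor genes on each array. Sox21 had the same value to 6 decimals in parental ESCs and both co-injection arrays, Pax6 in both co-injection arrays, Sox1 in the homologous array and co-injection batch 1, and Hes5 in parental ESCs and the homologous array. Over all 19938 genes, 1176 (5.90%) had equal values in both co-injection arrays.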
